A study of Mus musculus with 2 samples.

Results

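The genes described here are 38 type I interferon-stimulated genes listed by symbol, and 37 of them were found among the 31053 genes of the count matrix. Mx2 was not analysed here. The cells were CD45+ cells taken from subcutaneous tumours of MTC-Q1 cells in C57BL/6 mice, and RNA was counted per cell as unique molecular identifiers (UMIs, 1 per captured molecule) with the 10x Genomics 3' kit. One group of tumours grew from MTC-Q1 miR-21 KO cells and the other from MTC-Q1 WT cells, so the deletion was in the injected cells and the immune cells came from hosts that the labels do not call mutant. Tumours of both groups grew for 2 weeks, received cisplatin at 5 mg/kg and were taken 72 h later, and no untreated group was analysed here. Each group had 1 library, and its labels do not state how many animals it came from. The matrix holds 2 libraries, told apart by the barcode endings -1 and -2, and nothing ties an ending to a group. They are therefore called library 1 and library 2, no direction between miR-21 KO and WT is drawn, no difference has a replicate check, and no p-value is given.

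Library 1 held 5320 barcodes with a median of 7169 UMIs, and library 2 held 7194 barcodes with a median of 15247.5 UMIs. After filtering, 4979 cells of library 1 and 6743 of library 2 remained, of which 4051 and 5793 fell into 1 of 17 gates set on marker UMIs. The libraries differed in make-up: the naive-type CD8 T gate held 1242 cells in library 1 and 61 in library 2, whereas the macrophage gate held 285 and 1551. The libraries shared 8 barcode sequences. There were 8 gates that had at least 50 cells in each library and carry the comparisons. Marker levels were then read in the gates, as CPM (UMIs of a gene per 1000000 UMIs of the cells summed). In the monocyte gate the 7 monocyte markers summed to 15544 CPM in library 1 and 10425 CPM in library 2. In the macrophage gate the same markers summed to 2278 and 2146 CPM. These 7 markers also set the monocyte gate, so the contrast was built in and is no check of the gate. The collagen gate is called fibroblast-like, and its Ptprc, the gene of CD45, reached 5.05 CPM (library 1) and 6.18 CPM (library 2), against 879 and 615 CPM in the monocyte gate. The RNA of that gene is thus nearly absent from the gate, and the counts hold no CD45 protein. The 4 cycling markers there summed to 477 CPM in library 1 and 723 CPM in library 2. The 5 epithelial or tumour markers summed to 0.607 and 0.258 CPM. Whether the cells of this gate came from the host or were injected MTC-Q1 cells was not tested.

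Type I interferons bind the receptor chains IFNAR1 and IFNAR2, and the kinases JAK1 and TYK2 then activate STAT2. A complex that holds STAT2 and IRF9 binds the interferon-stimulated response element (ISRE) in the promoters of target genes. The products sense foreign nucleic acid, degrade or block viral RNA, and feed back on the pathway. Interferon gamma acts on another element, the gamma-activated site (GAS), and many of these genes answer to both.

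The ISRE letters are shown first, because they were more frequent in the members' promoters than in those of all genes. RefSeq promoter windows on GRCm38.p6, from 250 bases before to 50 after an annotated start, were held for 28 of the 38 members. The letters GAAA, 2 bases of any kind and GAAA again, or TTTC, 2 bases and TTTC on the other strand, occurred in 14 of the 28 (50%), against 3.99% of 27025 genes with a window. The GAS letters TTCNNNGAA occurred in 6 of the 28 (21.4%), against 9.55% of all genes. Oas2, Mx1, Mx2, Usp18, Ifi27l2a, Rtp4, Zbp1, Dhx58, Parp9 and Parp14 had no window. The sites below lie before the start, are written 5′ to 3′ along the gene, and carry the ISRE letters in capitals, merged where hits overlap.
Isg15 (chr4:156200855-156200904, minus strand): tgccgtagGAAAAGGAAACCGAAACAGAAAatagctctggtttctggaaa
Bst2 (chr8:71537567-71537616, minus strand): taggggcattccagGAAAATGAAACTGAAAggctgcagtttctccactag
Oas3 (chr5:120777705-120777754, minus strand): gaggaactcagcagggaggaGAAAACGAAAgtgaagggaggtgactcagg
Phf11b (chr14:59341351-59341400, minus strand): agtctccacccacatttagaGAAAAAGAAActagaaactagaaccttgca
Rsad2 (chr12:26456543-26456592, minus strand): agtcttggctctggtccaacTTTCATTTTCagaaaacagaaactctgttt
Stat2 (chr10:128270256-128270305, plus strand): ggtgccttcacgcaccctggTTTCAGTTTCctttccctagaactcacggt
Ifit1 (chr19:34640784-34640833, plus strand): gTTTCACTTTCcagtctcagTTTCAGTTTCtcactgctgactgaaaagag
Ifit3 (chr19:34583387-34583436, plus strand): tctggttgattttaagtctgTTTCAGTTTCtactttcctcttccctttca
Ifit3b (chr19:34607783-34607832, plus strand): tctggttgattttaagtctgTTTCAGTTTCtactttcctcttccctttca
Isg15 held 3 overlapping hits, starting 78, 72 and 66 bases before its start. Bst2 held 2 overlapping hits, and the GAS letters at its base -136 overlap the first of them. The stretches of Ifit3 and Ifit3b are letter for letter the same. The genes are near copies on chromosome 19, and reads of such copies may be split or lost in counting, so the separate levels of Ifit3 and Ifit3b are uncertain. The same holds for Phf11b and Phf11d on chromosome 14, for the Oas genes on chromosome 5 and for Trim30a among its relatives. A match is a description of letters and not a binding site.

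**Figure D1:**
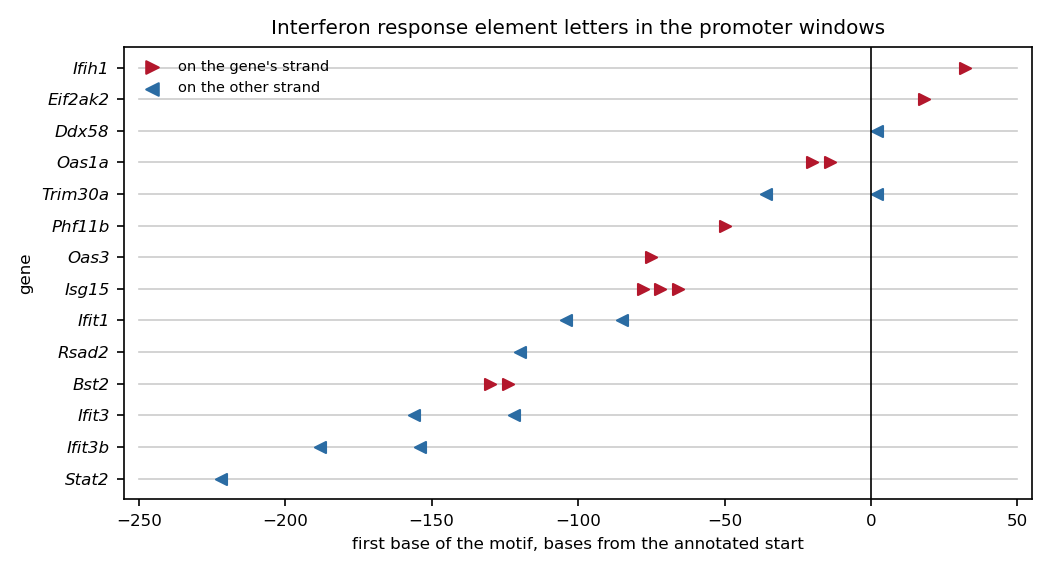
First base of each ISRE match in the RefSeq promoter windows of the 14 members that hold one, in bases from the annotated start (x axis), 1 line per gene; the arrow gives the strand. Matches run from 222 bases before the start in Stat2 to 32 bases after it in Ifih1, and Trim30a has 2 annotated starts with a match each.

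The longer stretch before Isg15 shows the cluster in its setting. The 250 bases before the start (chr4:156200819-156201068, minus strand) are printed with the same capitals.
Isg15: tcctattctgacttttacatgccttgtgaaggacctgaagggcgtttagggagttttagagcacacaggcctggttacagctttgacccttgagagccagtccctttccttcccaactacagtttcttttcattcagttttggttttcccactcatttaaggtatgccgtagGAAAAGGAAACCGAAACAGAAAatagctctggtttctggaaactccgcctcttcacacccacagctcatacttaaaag
Isg15 encodes a ubiquitin-like protein that is attached to other proteins and also secreted.

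With the gates as set, monocytes carried the most of the list, an order that in library 2 depended on the monocyte markers. In the monocyte gate, of 121 cells in library 1 and 774 in library 2, the 37 members summed to 18783 CPM (18542 to 19025, exact Poisson interval at 95%) in library 1. In library 2 they summed to 14887 CPM (14795 to 14979.9). Macrophages followed with 12259 CPM in library 1 and 11650.3 CPM in library 2. In the lymphoid gates with 50 cells in both libraries, the sum ran from 2158 CPM in NK cells of library 2 to 9470.5 CPM in naive-type CD8 T cells of library 2. NK cells had 3069 CPM of the list in library 1, against 2158 CPM in library 2, the lowest of the 8 gates in each library. Over all cells that passed, the list made up 0.563% of UMIs in library 1 and 0.760% in library 2. These intervals cover counting error only, and neither the libraries nor the cells are replicates.

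For 30 of the 37 members the same gate had the highest CPM in both libraries, against 66.7% of 9361 genes that reached 10 CPM in some gate of each library. That gate was the monocyte gate for 28 members, against 8.44% of those genes. Ifi44 was highest in fibroblast-like cells and Dtx3l in macrophages in both libraries. The leading gate differed between the libraries for Ifit1, Ifit3b, Irf9, Bst2, Parp9, Herc6 and Eif2ak2. NK cells had the lowest CPM for 8 members in both libraries and fibroblast-like cells for 7. The share of all genes lowest in these gates was not computed, so these counts have no background. Of the 7 monocyte markers, Ly6c2 and Plac8 are known to respond to interferon. Without them, and with the limit left at 30 UMIs, the gate shrank to 51 cells in library 1 and 148 in library 2. It then had 18784 and 9517 CPM of the list, and led 30 members in library 1 but 6 in library 2. The list was then lower in monocytes than in macrophages in library 2, and still higher in library 1. With the limit lowered to 10 UMIs of the other 5 markers it held 95 and 541 cells, with 18285 and 12842 CPM, and led 22 members in both libraries.

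**Figure D2:**
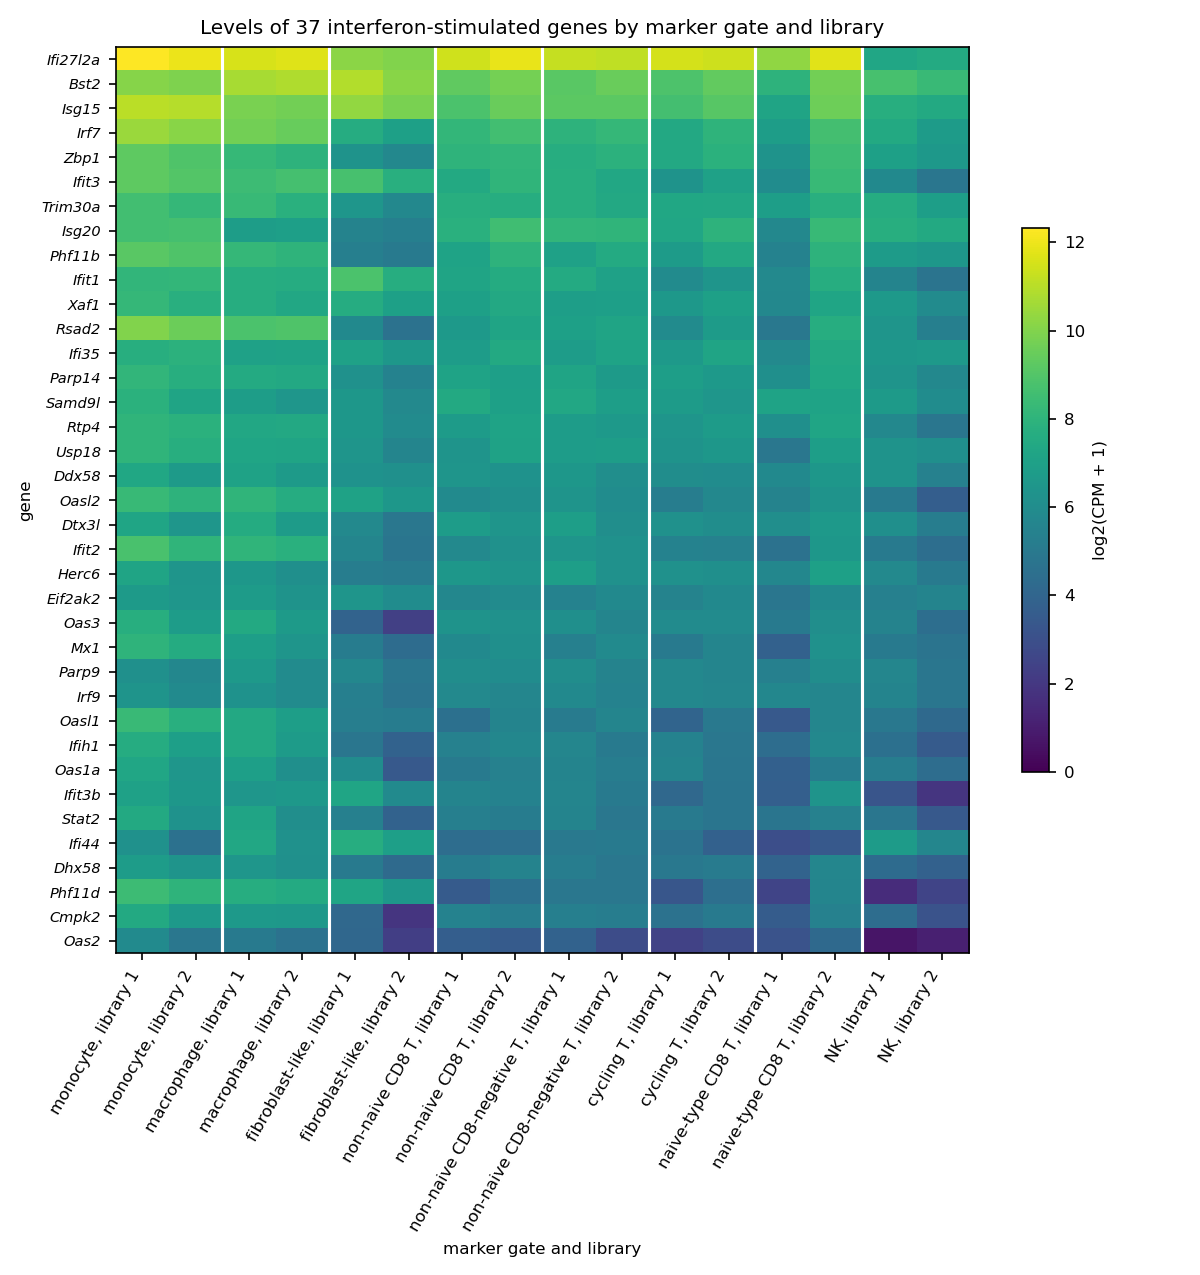
Level of each of the 37 members as log2(CPM + 1) (colour), in the 8 gates with at least 50 cells in both libraries, library 1 left of library 2 in each pair. The monocyte columns are the brightest for most genes, and Oas2 and Phf11d are lowest in the NK columns, at 0.649 to 4.80 CPM.

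Of the transducers and sensors, 6 of 8 were highest in monocytes in both libraries, and Irf9 and Eif2ak2 were highest there in 1 library and in macrophages in the other. Irf7, the factor that amplifies interferon production, had 1403 CPM in library 1 and 1123 CPM in library 2 in monocytes. In macrophages Irf7 stood at 825 and 711 CPM, and in NK cells at 177 and 108 CPM. Stat2, the gene of the complex's STAT2 part, had 180 CPM in library 1 and 75.5 CPM in library 2 in monocytes, against 27.9 and 9.91 CPM in NK cells. Irf9, the DNA-binding part of the complex, was flatter, with 82.9 and 58.7 CPM in monocytes and 46.1 and 27.6 CPM in NK cells. Among the RNA sensors, Ifih1 (MDA5) had 195 CPM in library 1 and 124 CPM in library 2 in monocytes, against 22.1 and 10.6 CPM in NK cells. Ddx58 (RIG-I) was closer between the gates, at 160 and 105 CPM in monocytes and 79.2 and 41.8 CPM in NK cells. Zbp1, a sensor of Z-form nucleic acid that can trigger cell death, had 623 and 484 CPM in monocytes and 129 and 92.8 CPM in NK cells. Dhx58 (LGP2), which tunes the other RNA sensors, had 111 CPM in library 1 and 81.8 CPM in library 2 in monocytes. Eif2ak2 (PKR), which halts translation on double-stranded RNA, had 106 CPM in library 1 and 79.4 CPM in library 2 in macrophages, against 39.6 and 45.9 CPM in NK cells.

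IFIT and OAS members act on viral RNA. Ifit1 and Ifit3b were higher in fibroblast-like cells than in monocytes in library 1 and lower in library 2. Ifit1 binds RNA lacking the host's cap marks. It had 447 CPM in library 1 and 206 CPM in library 2 in fibroblast-like cells, 274 and 289 CPM in monocytes, and 46.1 and 25.4 CPM in NK cells. Ifit3, its partner, had 430 and 215 CPM in fibroblast-like cells and 620 and 524 CPM in monocytes. Ifit2 did not share that pattern, with 47.7 and 27.0 CPM in fibroblast-like cells against 442 and 263 CPM in monocytes. The OAS enzymes make the 2'-5' linked adenylates that switch on RNase L, and the OAS-like Oasl1 and Oasl2 do not all share this activity. Oas1a had 154 CPM in library 1 and 87.9 CPM in library 2 in monocytes, and Oas3 had 211 and 112 CPM. Oas2 was low throughout, at 58.0 and 28.7 CPM in monocytes and 0.649 and 1.10 CPM in NK cells, where it rests on 1 and 11 UMIs.

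In the ISG15 system, Isg15 itself had 2111 CPM in library 1 and 1952 CPM in library 2 in monocytes. It had 1290.1 and 924 CPM in fibroblast-like cells and 208 and 176 CPM in NK cells. Usp18, which removes ISG15 and dampens receptor signalling, had 266 and 209 CPM in monocytes. Herc6, the ligase that attaches ISG15 in mice, had 146 CPM in library 1 and 83.8 CPM in library 2 in monocytes, while in naive-type CD8 T cells it had 51.2 and 129 CPM. Parp9 and Dtx3l, which act as a pair and sit side by side on chromosome 16, had 100.3 and 61.0 CPM, and 188 and 108 CPM, in macrophages.

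Of the membrane and nucleotide effectors, Rsad2 (viperin), which makes a chain-terminating nucleotide, had 999 CPM in library 1 and 757 CPM in library 2 in monocytes. In macrophages it had 458 and 490.1 CPM, and in NK cells 85.7 and 38.4 CPM. Its neighbour on chromosome 12, Cmpk2, had 176 and 102 CPM in monocytes. Bst2 (tetherin), which holds budding virus at the cell surface, was broad: 1655 and 1865 CPM in macrophages, 1888 and 1134 CPM in fibroblast-like cells, 1077 and 991 CPM in monocytes, and 430.3 and 321 CPM in NK cells. Mx1 had 253 CPM in library 1 and 189 CPM in library 2 in monocytes. C57BL/6 mice carry a defective Mx1, and RefSeq lists both Mx1 and Mx2 on this assembly as transcribed pseudogenes, so these are levels of the transcript. Isg20, an exonuclease, had 381 CPM in library 1 and 416 CPM in library 2 in monocytes, and was higher in NK cells, with 209.6 and 176 CPM, than in macrophages, with 116 and 125 CPM.

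Ifi27l2a, a small mitochondrial protein's gene, had 5105 CPM in library 1 and 3947 CPM in library 2 in monocytes, against 156 and 183 CPM in NK cells. Together with Bst2 and Isg15 it supplied 44.1% of the list's UMIs in library 1 monocytes and 46.3% in library 2 monocytes. In NK cells the same 3 genes supplied 25.9% and 31.5%. Plasmacytoid dendritic cells, the classical makers of type I interferon, numbered 17 in library 1 and 35 in library 2, under the minimum for the comparisons. Their list stood at 10080.3 and 10755 CPM, with 73.5% and 71.5% from those 3 genes. Ifi44, a gene of little known function, was highest in fibroblast-like cells, with 202 and 121 CPM, and reached 108 and 49.7 CPM in NK cells, against 74.1 and 23.0 CPM in monocytes. Phf11d was nearly absent from NK cells, with 3 UMIs in library 1 (1.95 CPM) and 48 in library 2 (4.80 CPM), against 347 and 259 CPM in monocytes.

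The dendritic and remaining lymphoid gates reached 50 cells in 1 library. In library 2, cDC2 cells had 8288 CPM of the list, migratory dendritic cells 8026 CPM, cDC1 cells 6935 CPM, cycling macrophages 7875 CPM and cycling NK cells 1796 CPM. In library 1, regulatory T cells had 7060.0 CPM, B cells 3800 CPM and naive-type CD8-negative T cells 2938 CPM. Over the 24 combinations of gate and library with 50 cells, 21 of the 37 members had a Pearson r above 0.8 with the mean of the other members' log2(CPM + 1). Ifit2 followed the mean most closely (r = 0.96), and Ifi44 (r = 0.30) and Samd9l (r = 0.33) least. These points share libraries and depth, and r is a description. The share of all genes with an r above 0.8 was not computed, so the count of members has no background.

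Few cells in any gate lacked list UMIs, and the spread in monocytes and macrophages was graded. Cells were thinned to 4000 UMIs each, which lost no cell. At that depth the median cell held 65 list UMIs in library 1 monocytes and 53 in library 2 monocytes, with the 10th to 90th percentiles at 23 to 143 and 13 to 130. In macrophages the medians were 42 and 40 UMIs. In NK cells they were 9 and 6 UMIs, with the 10th percentile at 2 in both libraries. No monocyte of either library lacked list UMIs, and among the gates with 50 cells the share of cells without any was highest in fibroblast-like cells of library 2 (3.29%, 14 of 425, 95% Clopper-Pearson interval 1.81% to 5.47%). The median monocyte showed 19 of the 37 members in library 1 and 16 in library 2, and the median NK cell 6.5 and 5. Free RNA adds to such counts: after thinning, a C1q UMI was found in 5.74% of NK cells of library 1 and in 40.4% of those of library 2, although NK cells do not make C1q. The estimated share of free RNA was 1.02% and 2.32% of UMIs there.

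**Figure D3:**
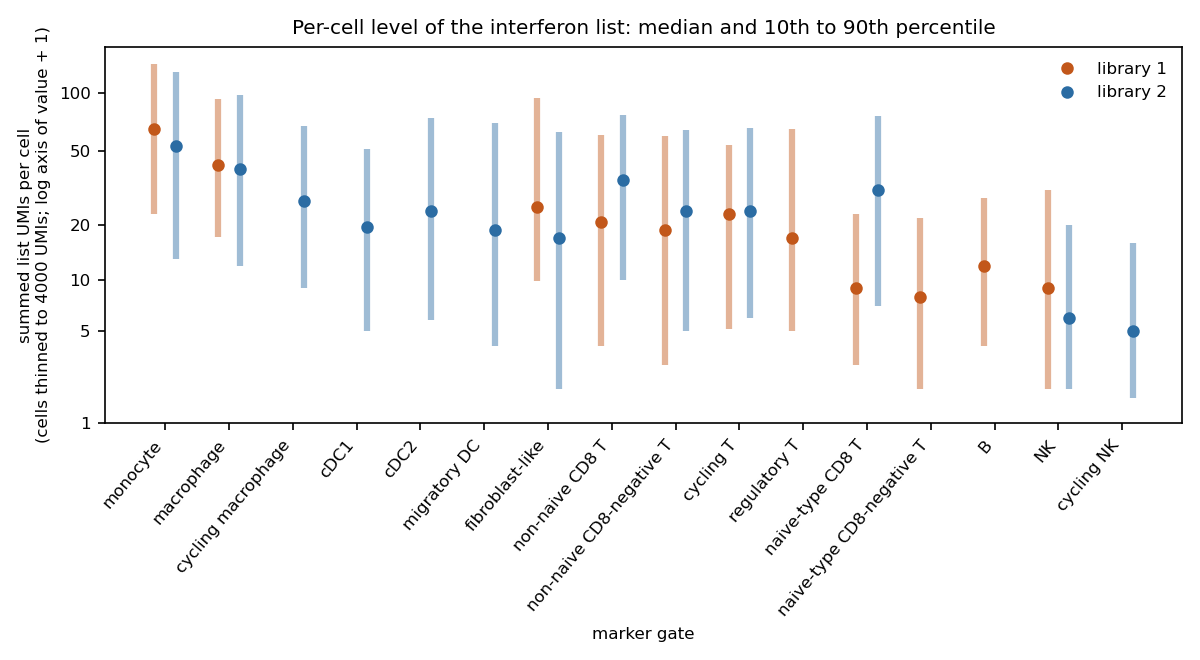
Summed UMIs of the 37 members per cell after thinning to 4000 UMIs (log axis of value + 1), by gate; points are medians and bars run from the 10th to the 90th percentile, library 1 left of library 2, for groups of at least 50 cells. Monocyte medians are 65 and 53 UMIs, and NK medians 9 and 6.

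To separate differences between cells from counting noise, the members were split by alternate place in the list into sets of 19 and 18. Cells were ranked by the first set and the UMIs of the second were counted, and the reverse. If the sets shared no difference between cells, the top 10% of cells would hold 10% of the other set's UMIs. It held between 20.3% and 33.3% over the 24 combinations of gate and library. In monocytes the share was 20.7% in library 1 (95% Clopper-Pearson interval 19.9% to 21.6%) and 24.2% in library 2 (23.8% to 24.6%). In macrophages it was 20.97% and 24.4%. It was larger in NK cells, at 24.7% and 33.3%, and in fibroblast-like cells, at 28.04% and 32.8%. The 2 directions of the ranking gave 27.6% and 40.9% in NK cells of library 2. Near-identical genes such as Ifit3 and Ifit3b fell into different sets, which can raise these shares. A gate that mixes kinds of cells can also raise them, so they do not show a program within 1 cell type. In the monocyte gate, 66.9% of library 1 cells and 66.7% of library 2 cells fell in 1 cluster, with 21561 and 17090 CPM of the list. Another cluster held 30.6% and 22.2% of the gate, with 12752 and 11049 CPM.

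The rise ran through the whole ranking in monocytes and macrophages of both libraries. In NK cells of library 2 it came late. The mean of the second set there was 2.36 UMIs in the lowest 10%, 3.90 at step 6 of 10 and 15.8 in the highest 10%. In naive-type CD8-negative T cells of library 1 the last step held 30.9% of the UMIs and the step before it 14.6%. In library 2 monocytes the lowest 10% held 2.16% of the second set's UMIs and the highest 24.3%, with a rise at each of the 9 steps, 11.4-fold in mean UMIs from end to end. The end-to-end ratio was 6.89 in library 1 monocytes, and 6.17 and 6.57 in macrophages of library 1 and library 2. It ranged over the groups of at least 100 cells from 4.42 in cycling macrophages to 31.6 in fibroblast-like cells of library 2. Depth moved with the ranking in the last of these, where the median cell had 31785 UMIs in the highest 10% and 81920 in the lowest. It also fell up the ranking in other library 2 gates. These medians were 10758 and 22784 UMIs in cycling T cells, 7297 and 13121 in non-naive CD8-negative T cells, and 12713 and 18048 in macrophages. In library 2 monocytes they were 7005 and 8797.5 UMIs. Depth rose in macrophages, the non-naive and naive-type T cell gates and B cells of library 1. The part of depth in the result was not tested.

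**Figure D4:**
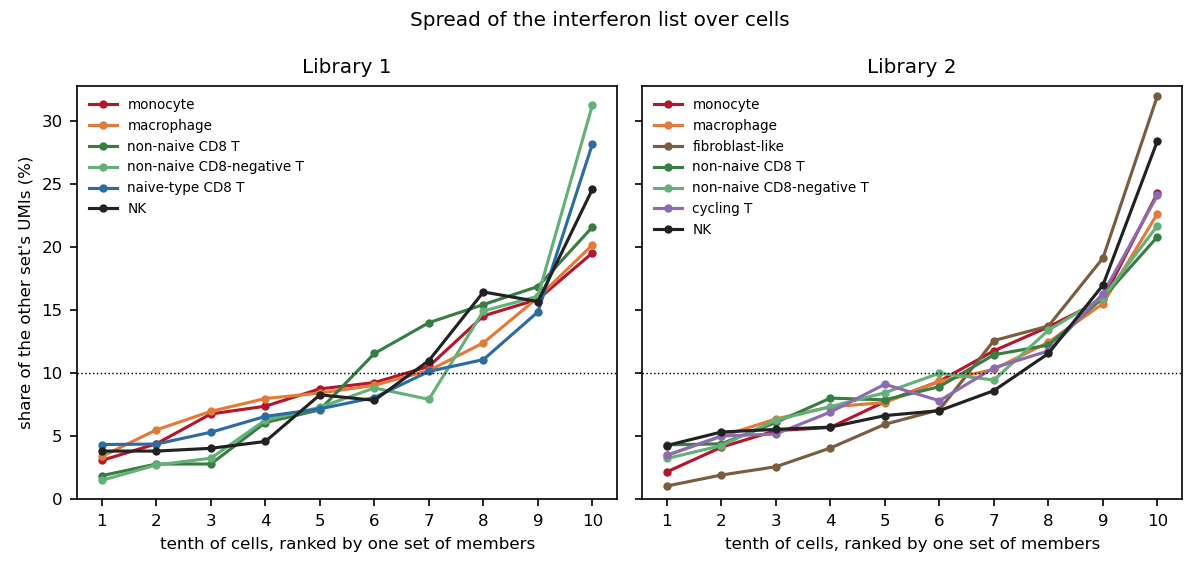
Share of the second set's UMIs (y axis, %) in 10 equal steps of cells ranked by the first set (x axis, lowest to highest), for the compared gates with at least 100 cells in the library; the dotted line marks 10%. Single steps fall in some T and NK cell curves, and the last point is the highest in every curve, up to 32.0% in fibroblast-like cells of library 2.

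Genes outside the list moved with the ranking to differing degrees. From the lowest to the highest 10% of library 1 monocytes, 20 other interferon-induced genes summed to 3.59 times as much, and 12 genes of the interferon gamma list to 4.92 times as much. Over the same cells the ratio was 1.32 for the 12 handling-stress genes and 1.04 for the 7 NF-kB target genes. In library 2 monocytes the 4 ratios were 4.73, 6.97, 1.47 and 1.01. In NK cells they were 2.65, 2.22, 1.32 and 2.60 in library 1, and 2.95, 5.17, 1.65 and 5.62 in library 2. The NF-kB genes thus ended higher in NK cells, whereas in monocytes the 2 ends of the ranking were alike. Between those ends they dipped in monocytes. They stood at 2549 CPM at step 5 of 10 in library 1 and at 8400 CPM at step 6 in library 2. The ratio for the handling-stress genes was 3.62 in library 2 fibroblast-like cells, and 2.05 and 2.29 in non-naive CD8-negative T cells of library 1 and library 2, and their part in the ranking was not tested. The interferon gamma list and the members share regulators, and which interferon acted was not tested.

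Single members differed in how their UMIs were spread. The Fano factor, the variance over the mean of thinned counts, had a median over measured members of 1.69 in library 1 monocytes and 1.72 in library 2 monocytes, against 1.14 and 1.12 over all genes measured there. Rsad2 was highest in both, at 14.4 and 15.6: it was seen in 57.0% and 51.8% of monocytes, and the top 10% of cells held 56.5% and 61.7% of its UMIs. Ifi27l2a, seen in 95.9% and 90.6% of monocytes, had 23.4% and 27.7% of its UMIs in the top 10%. Bst2 had 28.1% and 29.8% there. Cmpk2 was seen in 28.1% and 19.8% of monocytes. Both measures depend on a gene's level, which was 5105 and 3947 CPM for Ifi27l2a and 176 and 102 CPM for Cmpk2. They therefore do not rank genes by evenness. In several other gates Ifi27l2a had the highest Fano factor of the members, at 7.62 in library 1 macrophages and 22.1 in library 1 non-naive CD8-negative T cells. In fibroblast-like cells Ifit1 had the highest Fano factor, at 10.1 in library 1 and 14.7 in library 2, with 64.7% and 77.9% of its UMIs in the top 10%. These shares for single genes hold counting noise, since cells were ranked by the gene itself.

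The libraries were then set side by side gate by gate, as log2 of library 1 over library 2. A member was counted as past the limit with at least 100 UMIs in the gate, a 2-fold ratio and a 95% binomial interval beyond 1.5-fold. In monocytes 3 of 37 members were past it, all higher in library 1, against 2.04% of 5636 genes in that direction and 1.4% in the other. These were Ifi44 (log2 ratio 1.69, 95% interval 1.30 to 2.07), Stat2 (1.25, 1.02 to 1.48) and Oas2 (1.02, 0.60 to 1.41). The median over members was 0.42, against 0.10 over all genes, and the summed list gave 0.34 (0.31 to 0.36). The count was 9 with cells of at least 10000 UMIs, 19 without Ly6c2, Plac8 and Cd274 as markers, and 5 without Ly6c2 and Plac8 at a limit of 10 UMIs. In macrophages Stat2 (1.10) and Ifi44 (1.20) were past the limit, 2 of 37 members, against 2.27% of 9310 genes in that direction and 1.24% in the other. The macrophage median was 0.31, against 0.04 over all genes, with 29 of 37 members above 0. The macrophage sum was 0.07 (0.06 to 0.09), and 0.26 without Ifi27l2a, Bst2 and Isg15, and it was below 0 with the gate limits lowered or with every cell weighted alike.

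NK cells and fibroblast-like cells were higher in library 1 over more members. In NK cells 7 of the 34 members with enough UMIs were past the limit, against 3.02% of 6791 genes in that direction and 1.02% in the other: Ifit3, Rsad2, Oas3, Oasl2, Stat2, Ifi44 and Cmpk2, at log2 ratios from 1.03 to 1.49. Rsad2 had 85.7 CPM in library 1 and 38.4 CPM in library 2 there. The count was 4 with the highest doublet scores kept, and 4 in cells of at least 10000 UMIs. The NK sum gave 0.51, and 0.60 with free RNA subtracted. In NK cells 9 of 12 handling-stress genes were also past the limit, higher in library 1, with Hspa1a at 568 CPM, against 65.5 CPM in library 2, and their part in the list's difference was not tested. In fibroblast-like cells 10 of 37 members were past the limit, against 3.44% of 9715 genes in that direction and 1.14% in the other: Ifit1, Ifit3, Ifit3b, Rsad2, Oas1a, Oas2, Oas3, Stat2, Cmpk2 and Ifih1. The count was 5 with the gate limits lowered by a factor of 2, and the ratio of the summed list was then 0.22 against 0.62. All 37 had ratios above 0 with the gate as set, with a median of 0.74 against 0.13 over all genes. Oas1a had 63.3 CPM in library 1 and 10.0 CPM in library 2 (log2 ratio 2.66, 2.41 to 2.91). The 4 collagen markers also differed between the libraries in this gate, with 9846 CPM in library 1 and 5784 CPM in library 2. Whether the gate holds host cells or injected MTC-Q1 cells was not tested, so these counts are tied to neither.

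In naive-type CD8 T cells the list ran the other way. Of the 35 members with enough UMIs, 26 were past the limit, all higher in library 2, against 12.5% of 6832 genes in that direction and 4.13% in the other. The list had 3120 CPM in library 1, against 9470.5 CPM in library 2 (log2 ratio -1.60), and the median member was at -1.52 against -0.12 over all genes. Isg15 had 144 CPM in library 1 and 778 CPM in library 2 (-2.44, -2.57 to -2.31), and Ifit3b had 12.0 and 83.3 CPM (-2.79). Irf9 (0.07) and Samd9l (0.02) were near level. The gate did not hold the same cells in the libraries. Of the 1242 cells of library 1, 84.5% fell in 1 cluster, whereas of the 61 cells of library 2, 26 fell in another. A further 9 of the 61 fell in a cluster whose most common gate was cycling macrophages, and 8 in the main cluster of library 1. Gzmb, a granzyme of activated killer cells, had 29.0 CPM in library 1 and 1310 CPM in library 2 in this gate, with S1pr1, a receptor of recirculating cells, at 331 CPM in library 1, against 32.5 CPM in library 2. Within the cluster shared by 61 cells of library 1 and 26 of library 2, the list had 5950 and 8572 CPM and the ratio was -0.53 (-0.59 to -0.46). Composition and library cannot be told apart for the rest.

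**Figure D5:**
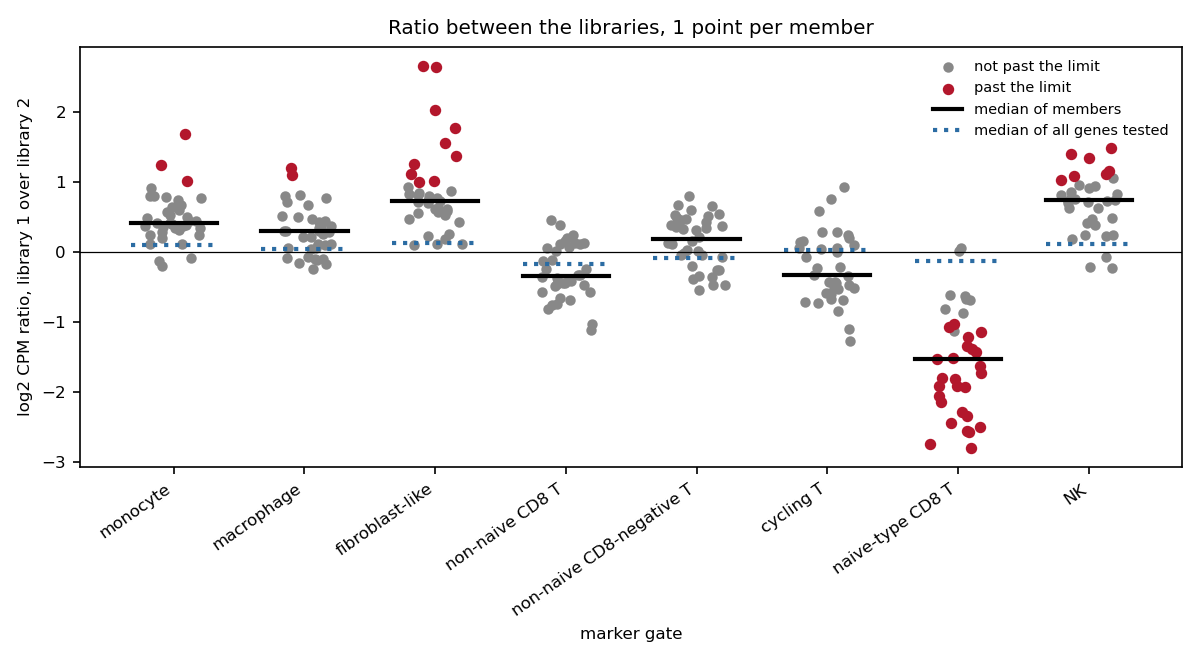
Log2 ratio of CPM, library 1 over library 2 (y axis), with 1 point per member with at least 100 UMIs in the gate; red points are past the 2-fold limit, black bars are medians over members and dotted blue bars medians over all genes tested. Naive-type CD8 T members centre on -1.52, and fibroblast-like members lie above 0.

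No member was past the limit in the other T cell gates as set, a count that depended on the gates. With the limits raised by a factor of 2, 13 members were higher in library 2 in non-naive CD8 T cells, 3 in non-naive CD8-negative T cells and 2 in cycling T cells. With clusters in place of gates, 6 were higher in library 2 in cycling T cells. The number in cycling T cells was 1 with the highest doublet scores kept and 1 in cells of at least 10000 UMIs. The share of all genes past the limit was not computed for these alternatives, so these counts have no background. In non-naive CD8 T cells 0 of 36 members were called in either direction, against 1.75% of 4798 genes higher in library 1 and 6.04% higher in library 2, and the list had 7106 CPM in library 1 and 9424 CPM in library 2 (log2 ratio -0.41). That ratio was -0.91 with the limits raised and -0.07 with them lowered. Within the cluster that held most of this gate in library 2, the list had 10351 and 10471 CPM. In another cluster, of 17 cells in library 1 and 103 in library 2, it had 8860 and 7187 CPM (log2 ratio 0.30, 0.22 to 0.38), opposite in sign to the gate. In non-naive CD8-negative T cells 0 of 36 were called, against 4.28% of 5113 genes higher in library 1 and 5.1% higher in library 2, with 7086 and 6742 CPM. In cycling T cells 0 of 36 were called, against 1.79% of 7820 genes higher in library 1 and 2.75% higher in library 2, with 6095 and 6691 CPM.

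Upstream of the members, the ligands were almost unseen. Ifnb1, the gene of interferon beta, had 0 UMIs in 4979 cells of library 1, which allows a level of up to 0.0575 CPM, and 133 UMIs in 21 cells of library 2. Of these, 90 came from 1 cell in the cycling T gate, which held 55722 UMIs where the gate's median was 18363. That cell also held 59 of the 69 Ifna2 UMIs of library 2, with 6 of Ifna5, 5 of Ifna4 and 3 of Ifna1. It carried 115 UMIs of the genes Cd3d, Cd3e and Cd3g, 4 of the C1q genes and none of Siglech, and its doublet score lay at the 90.4th percentile of its library. Its own list level was 10086 CPM, and it was singled out after its values were seen. Ifne had 1 UMI, in library 2.

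The receptor chain was measurable in every gate. Ifnar1 had 74.1 CPM in library 1 and 61.5 CPM in library 2 in monocytes, and 63.6 and 46.7 CPM in NK cells. Ifnar2 was lower in NK cells, at 43.5 and 42.2 CPM, than in monocytes, at 159 and 156 CPM. Jak1 ran the opposite way, with 386 and 286 CPM in NK cells and 138 and 141 CPM in monocytes. Of the 11 sensors and adaptors, none of the 9 with enough UMIs was past the limit in monocytes, where 2.04% of all genes were higher in library 1. In each of the 4 T cell gates, 1 was past it, higher in library 2. Those with enough UMIs numbered 5 in non-naive CD8, 6 in non-naive CD8-negative, 8 in cycling and 5 in naive-type CD8 T cells. In the same order, 6.04%, 5.1%, 2.75% and 12.5% of all genes were past the limit in that direction. The gene past it was Irf5, a factor downstream of Toll-like receptors, in non-naive CD8, non-naive CD8-negative and cycling T cells. Irf5 had 2, 12 and 11 UMIs there in library 1. After thinning, a C1q UMI was found in 16.1%, 13.2% and 7.32% of the cells of these gates in library 1. In library 2 a C1q UMI was found in 47.1%, 45.2% and 36.99%. The part of free RNA or doublets in the Irf5 counts was not tested. In naive-type CD8 T cells the gene past the limit was Tmem173 (STING), with 14.6 CPM in library 1 and 46.5 CPM in library 2. Tlr7, a sensor of single-stranded RNA, had 37.9 and 29.9 CPM in monocytes and 61.1 and 52.2 CPM in macrophages. Of the brakes, Socs3, which curbs cytokine signalling, had 110 CPM in library 1 and 31.1 CPM in library 2 in NK cells (log2 ratio 1.83), and Socs1 had 96.0 and 67.6 CPM.

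The 10 genes outside the list with the pattern most like it were ranked over the 24 combinations of gate and library. They were Trafd1 (Pearson r 0.93), Daxx (0.93), Lgals9 (0.92), Parp12 (0.90), Ube2l6 (0.90), Irgm1 (0.89), Tmbim6 (0.88), Tor1aip1 (0.88), Znfx1 (0.88) and Cebpb (0.88). Ube2l6, the conjugating enzyme for ISG15, had 237 CPM in library 1 and 177 CPM in library 2 in monocytes and 3.89 and 6.11 CPM in NK cells. Parp12 had 122 and 70.0 CPM in monocytes and 6.49 and 4.80 CPM in NK cells. Cebpb, a factor of myeloid cells, had 2296 and 2033 CPM in monocytes and 134 and 91.7 CPM in NK cells.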

How the data were processed

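CD45+ cells of 2 tumour groups were measured in 1 library each. The deposited values are raw UMI counts per gene and cell in 1 matrix of both libraries; per the file headers it was written by Cell Ranger 3.1.0, and the build mm10 comes from the submitters' processing notes. No value had been normalized. Barcodes with at least 200 genes, 500 UMIs and at most 10% mitochondrial UMIs were kept. Scrublet (scanpy 1.11.5) marked 2 barcodes of library 1 and 1 of library 2 by its own threshold, which is too few to have worked, so the 5% of barcodes with the highest scores were left out (262 of library 1 and 355 of library 2). Lowest totals were 4166 and 4810 UMIs. Gates were set on summed raw marker UMIs, with limits chosen after the markers were seen and never on members: T cells at 4 UMIs, NK cells at 4, B cells at 6, macrophages at 30 of C1q, monocytes at 30 with fewer than 10 of C1q, fibroblast-like cells at 20, CD8 at 3, naive at 6 and cycling at 8. Cells with markers of 2 lineages were left out for many pairs of lineages but not all. T cell gates could hold NK or cDC1 markers, and the macrophage gate monocyte or cDC2 markers. The fibroblast-like gate could hold monocyte or dendritic markers. In non-naive CD8-negative T cells the 5 NK markers summed to 240 CPM in library 1 and 562 CPM in library 2. Raw limits favour the deeper library.

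UMIs were summed per gate and library and given as CPM with exact Poisson intervals, ratios with exact conditional binomial intervals and per-cell shares with Clopper-Pearson intervals, all at 95% and for counting error only. Leiden clusters (resolution 1) were built without the members. All members may be named, and other genes come from fixed lists or the 10 highest correlations. The members and lists were chosen with earlier results of these data known. The ratio calls and the set ranking were run on simulated Poisson counts. The simulated sums for the ratio calls held no spread between cells beyond counting error. That run therefore checks the calculation only, and not the calls under the spread seen here. Alternatives covered gate limits, clusters, doublets, mitochondrial share, the total, cell weighting, free RNA, depth and markers. A gene of the receptor chain is not reported here.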

Additional observations from a re-analysis of the deposited data

Results flagged for a closer look

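The log2 ratio of the summed list, library 1 over library 2, lay on opposite sides of 0 in different gates. In fibroblast-like cells it was 0.62, with 7689 CPM in library 1 and 4994 CPM in library 2 (0.22 to 0.80 over the alternatives), and in naive-type CD8 T cells it was -1.60, with 3120 CPM in library 1 and 9470.5 CPM in library 2. With 1 library per group, the difference between the gates was not tested, and the naive-type CD8 T gate held different clusters in the libraries.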

How the results depend on the processing

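No paired analysis was possible because each group had 1 library, and for the same reason none could be left out. The log2 ratios of the list were 0.34 in monocytes, 0.07 in macrophages, 0.51 in NK cells and -1.60 in naive-type CD8 T cells, and the shares of the list in the top 10% of cells in library 2 were 24.2% in monocytes and 33.3% in NK cells. With gate limits lowered by a factor of 2, macrophages gave -0.015, NK cells 0.58 and naive-type CD8 T cells -1.68, with shares of 25.2% in monocytes and 31.4% in NK cells. With limits raised by that factor, monocytes gave 0.18, macrophages 0.055, NK cells 0.65 and non-naive CD8-negative T cells -0.37, with shares of 22.3% and 30.3%. Clusters in place of gates gave 0.15, 0.025 and 0.56 in monocytes, macrophages and NK cells, with shares of 24.8% and 28.6%. With every cell weighted alike, monocytes gave 0.26, macrophages -0.00047, naive-type CD8 T cells -1.69 and non-naive CD8-negative T cells -0.11. Keeping the highest doublet scores gave 0.44 in NK cells with 4 members past the limit. At most 5% mitochondrial UMIs gave -1.54 in naive-type CD8 T cells, and a total without mitochondrial, ribosomal and Gm42418 UMIs gave -1.28 there and 0.10 in macrophages. Subtracting free RNA gave 0.088 in macrophages and 0.60 in NK cells. Cells of at least 10000 UMIs gave 0.67, 0.11 and 0.44 in monocytes, macrophages and NK cells, with 9 monocyte and 4 NK members past the limit. Thinning to 2000 UMIs gave a monocyte share of 23.7%. Without Ly6c2 and Plac8 as markers and with the limit left at 30 UMIs, monocytes gave 0.98 with 19 members past the limit and 22.2% in library 1. There 10 members were led by the same gate in both libraries, and 6 by monocytes. The following alternatives were chosen after seeing the data. Without Ly6c2 and Plac8 and with a limit of 10 UMIs, monocytes gave 0.51, 5 members and 25.7%. Without Ifi27l2a, Bst2 and Isg15, the ratios were 0.39, 0.26, 0.62 and -1.54 in the 4 gates in the order above, and the shares in library 1 and library 2 were 23.6% and 27.9% in monocytes and 28.5% and 34.5% in NK cells. Cluster 11 cells alone gave -0.53 in naive-type CD8 T cells. The causes of these shifts were not tested. The shares were not computed for other totals, cell weights, free RNA or the 10000 UMI minimum. The percent of all genes past the limit was not computed for any alternative, so those counts of members have no background. Depth limits the members under 100 UMIs in a gate.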

Other observations

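Regulatory T cells and naive-type CD8-negative T cells of library 2 were too few for the comparisons, at 34 and 31 cells. Their list stood at 14413 CPM (95% exact Poisson interval 14031 to 14802) and 9813 CPM (9516 to 10116), against 7060.0 CPM in 94 regulatory T cells and 2938 CPM in 1141 naive-type CD8-negative T cells of library 1. The clusters they fall in were not compared.

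Trex1, a nuclease that clears DNA from the cytosol, was listed at 0 in every gate of both libraries. Adar, which edits double-stranded RNA, had 74.1 CPM in library 1 and 34.8 CPM in library 2 in monocytes. Ifitm3, an interferon-induced membrane protein's gene outside the list, ran against most members in NK cells, with 385 CPM in library 1 and 795 CPM in library 2 (log2 ratio -1.05, 95% interval -1.17 to -0.93).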
